A study of Homo sapiens with 4 samples.

Results

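The subject here is 10 genes whose circular RNAs are widely studied: HIPK3, FOXO3, CDYL, ZNF609, FBXW7, UBAP2, CAMSAP1, CORO1C, MAN1A2 and PVT1. Every circle whose list of overlapping genes held one of these names exactly, and that was not antisense to it, was taken. This gave 487 of the 211599 back-splice positions in the table, or 0.23%. Of the 487 positions, 440 had at least 1 count, and together they held 16129 counts, which is 0.947% of the 1702290 counts in all. The number of positions ranged from 8 for CAMSAP1 to 122 for HIPK3.

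The cells belonged to MDA-MB-468, a long-established line from a human breast cancer of the basal-like type. All 4 libraries came from a radioresistant derivative that had received 50 Gy in fractions. In 2 libraries the cells carried a control hairpin (shCtrl, genotype given as WT), and in the other 2 a hairpin against HNRNPL (shHNRNPL, genotype given as HNRNPL knockdown). HNRNPL is an RNA-binding protein that regulates splicing, and the comparison asks which circles differ when it is reduced. The knockdown rests on 1 hairpin, and the labels do not say whether the replicates were separate cultures, so p-values measure only the spread between these libraries. The knockdown also rests on the labels alone, because 0 rows named HNRNPL as a host.

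A circular RNA forms when the end of a downstream exon, the donor, is joined back to the start of an upstream exon, the acceptor. The closed product has no free ends and resists exonucleases, so it can outlast the linear transcript of its host gene. Many host genes give a single dominant circle, while others join several donors to several acceptors and give a family of circles. Pairing of inverted repeats in the flanking introns and RNA-binding proteins bound there are both known to affect which sites are joined.

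Depth differed between groups: the controls held 472428 (replicate 1) and 556578 counts (replicate 2), and the knockdowns 282737 and 390547. Levels below are counts per 100000 counts of the library, and 4 values in a row stand for control replicates 1 and 2 and then knockdown replicates 1 and 2. Where a circle had no count, the limit that a count of 0 allows (3 counts) came to 0.635 and 0.539 per 100000 in the controls and to 1.06 and 0.768 in the knockdowns. Control replicate 1 stood apart from the other 3 libraries: 70.9% of its counts lay in circles of exon type, against 84.9%, 85.7% and 85.6%. Circles that the caller typed as intron held 19.7% of its counts against 10.6%, 9.93% and 10.0%. Of the epithelial markers fixed for the cell line, circles were counted for EGFR (115, 52, 12 and 21 counts), EPCAM (35, 38, 15 and 20), CDH1 (13, 14, 9 and 6) and KRT5 (2 counts in control replicate 1), and KRT8 was at 0. PTPRC of leukocytes, COL1A1 and COL1A2 of fibroblasts, and PECAM1 and VWF of endothelium were at 0 in every library.

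For each gene the leading circle was the back-splice position with the largest share of the gene's counts, averaged over the 4 libraries. All 10 leading circles were of exon type, and all carried the caller's splice tag for AG and GT with an offset of 0 at both ends and no asterisk. That tag was on 32.6% of all positions with a count, which held 66.2% of all counts, and on 30% of the positions of these 10 genes. The caller also lists an equivalent sequence at the back splice, read in the sense of the RNA. It is shown for the leading circles because it is the part of the junction that the table records. Capitals mark AG, which closes an intron at an acceptor, and GT, which opens one at a donor.
HIPK3: cAGGTa
FOXO3: gcAG
CDYL: AGGT
ZNF609: AG
FBXW7: g
UBAP2: gg
CAMSAP1: AG
CORO1C: ccAG
The runs for HIPK3 and CDYL held both AG and GT, those for FOXO3, ZNF609, CAMSAP1 and CORO1C held AG alone, and those for FBXW7 and UBAP2 held neither. The leading circle of MAN1A2 had no such run, and that of PVT1 is not shown.

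The summed circular RNA of 9 of the 10 genes was lower in both knockdown libraries than in both controls, and that of MAN1A2 overlapped between groups. For PVT1 the gap was worth less than a single count: 69 counts in control replicate 2 and 35 in knockdown replicate 1 both came to 12.4 per 100000. In bulk RNA, fewer cells that make a circle and less of it per cell cannot be told apart. Lower totals with no overlap were common in these libraries: 36.7% of all 8379 host genes with at least 10 counts had them, against 15.3% in the other direction. After TMM scaling, none of the 10 genes passed edgeR's quasi-likelihood test with Benjamini-Hochberg adjustment, in which 37 of 8379 host genes (0.442%) passed, all of them higher. At an unadjusted p under 0.05, 1 of the 10 (ZNF609, lower) was counted, against 13.7% of all host genes (6.17% lower). The DESeq2 Wald test called 0 of the 9 that it gave an adjusted p, and 184 of 3830 host genes (4.8%). A fit without either control replicate holds 1 control library, so it cannot measure the spread between controls. Without control replicate 2 the log2 fold changes were -1.49 for FOXO3, -2.53 for ZNF609, 0.65 for MAN1A2 and -0.67 for PVT1. Without control replicate 1 they were -0.31, -2.57, -0.23 and 0.07. The median log2 fold change of the 10 genes was -0.36, beside -0.26 for all host genes. The centre depends on the scaling, since scaling by library size alone moved the median of all host genes by -0.34, to -0.60.

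**Figure D1:**
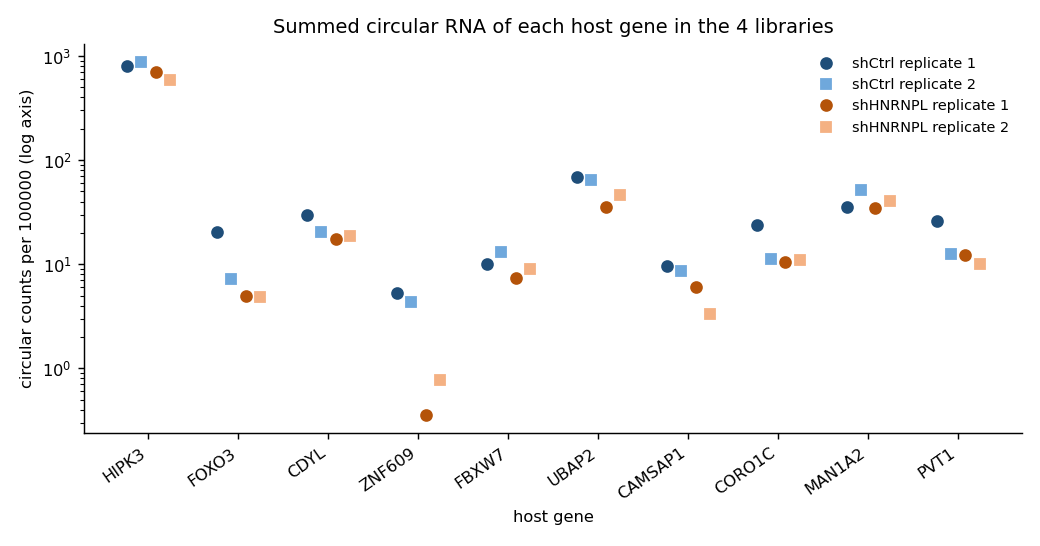
Summed circular counts of each host gene per 100000 counts of the library, on a log axis, with 1 point per library (circles and squares for replicates 1 and 2, blue for shCtrl and orange for shHNRNPL). HIPK3 lies between 592 and 883 in all 4 libraries, far above the other 9 genes, and ZNF609 has the lowest points, 0.354 and 0.768 in the knockdown libraries.

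Among single circles, 61 of the 487 positions had at least 10 counts over the 4 libraries and were tested; a position that is high in only 1 group could pass on that group alone. None of the 61 passed, as none of all 21576 circles did with edgeR's quasi-likelihood test. At an unadjusted p under 0.05 there were 7 of 61 (11.5%), against 2895 (13.4%) of all circles. Of the 7, 4 were higher (9.42% of all circles were) and all 4 came from MAN1A2, and 3 were lower (4% of all circles were). Leaving out a control changed this, but leaves 1 control library, so such calls do not measure the spread between controls. Without control replicate 1 the same test called 11 of the 47 circles still tested (23.4%, against 28.1% of all circles), 4 higher, all of MAN1A2, and 7 lower, the leading circles of FBXW7, UBAP2 and MAN1A2 among them. Without control replicate 2 it called 15 of 43 (34.9%, against 43.2%), 5 higher, of which 4 were of MAN1A2, and 10 lower, among them the leading circles of HIPK3, FOXO3, CDYL and UBAP2. Without knockdown replicate 1 or 2 it called none of all circles, with 863 and 806 at an unadjusted p under 0.05. The DESeq2 Wald test called 3 of the 36 that it gave an adjusted p: the leading circle of UBAP2, lower, and 2 circles of MAN1A2, higher. Over all circles it called 1085 of 10311 (9.06% higher and 1.46% lower). The knockdown libraries were both below both controls for 23 of the 61 (37.7%, against 22.9% of all tested circles), and both above for 6 (9.84%, against 23.2%). The median log2 fold change of the 61 was -0.74, or -0.70 with the 4 circles that had no count in one group set at their bound, beside -0.39 for all circles.

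**Figure D2:**
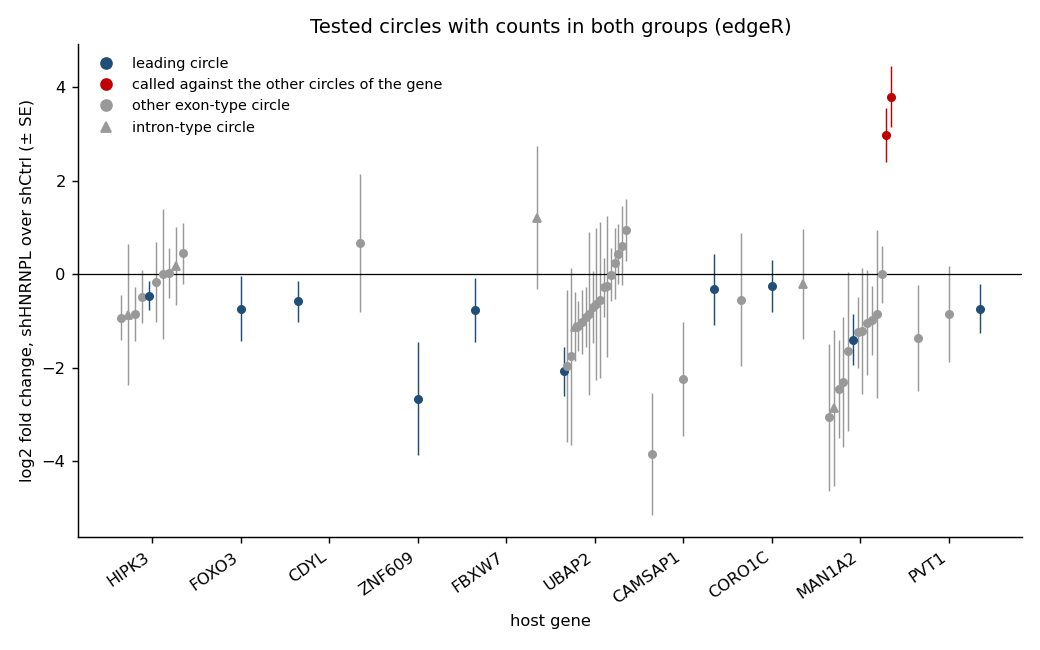
Log2 fold change of shHNRNPL over shCtrl with its standard error for the 57 tested circles that had counts in both groups, by host gene (points, exon type; triangles, intron type). Leading circles are blue. The red points, called against the other circles of their gene, are 2 circles of MAN1A2 at 2.98 and 3.80, and the leading circle of UBAP2 lies at -2.07.

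HIPK3 encodes a nuclear serine/threonine kinase that binds homeodomain proteins. Its leading circle was a single exon of 1099 nt at chr11:33286413-33287511 (+), 29741 nt from the annotated start of the gene. It had 3605 and 4630 counts in the controls, against 1850 and 2156 in the knockdowns, more than any other circle of the 10 genes (a count is a read, with no scaling for circle length). These were 94.1%, 94.2%, 93.3% and 93.3% of the HIPK3 counts, so 1 circle stood for nearly all of the gene in every library. Among all circles of a library it ranked 2 in both controls, and 5 and 9 in the knockdowns.

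The mean share of this circle, 93.7%, was above that of 99.3% of the 2873 host genes with at least 100 counts, whose median leading share was 25.2%. The other positions of HIPK3 were minor. The second circle had a mean share of 1.16%. That circle, chr11:33338757-33341686, had 18, 75, 27 and 30 counts. The acceptor of the leading exon was also joined to more distant donors, and in all it started 95.7%, 95.6%, 94.7% and 94.2% of the HIPK3 counts. The summed HIPK3 level was 847 ± 51.2 per 100000 in the controls and 647 ± 77.5 in the knockdowns (SD, n = 2 each), without overlap. The log2 fold change after TMM was -0.09 ± 0.48 (SE, edgeR adjusted p = 0.951), so the gene did not pass the test. With library-size scaling alone it was -0.41 (edgeR adjusted p = 0.482), which did not pass either. The leading circle tested by itself had -0.46 ± 0.31 after TMM (edgeR adjusted p = 0.47). Genes and circles were scaled in separate fits, so this value and that of the gene are not on one scale. Per 100000 the leading circle was at 797 ± 48.6 in the controls and 603 ± 72.3 in the knockdowns (SD, n = 2 each).

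FOXO3 encodes a forkhead transcription factor of the stress and insulin responses. Its leading circle, a single exon of 1435 nt at chr6:108663455-108664889 (+), had 26 and 13 counts in the controls, against 7 and 10 in the knockdowns. That was 26.8% and 32.5% of the gene in the controls, against 50.0% and 52.6% in the knockdowns, so its share was higher in both knockdowns, while its own level per 100000 overlapped between groups. The rest of the gene differed more between the libraries. A further 2 circles, chr6:108674841-108679223 and chr6:108680038-108683051, had 14 and 13 counts in control replicate 1 and none in the other 3 libraries. In control replicate 2, 2 circles of intron type, named after their values were seen, had 7 (chr6:108604447-108605394) and 6 counts (chr6:108592770-108594478) and none elsewhere. Circles of intron type held 43.3% and 62.5% of FOXO3 in the controls, against 28.6% and 36.8% in the knockdowns, and whether this sets the share was not tested. With exon-type circles alone, the difference in the leading share fell from 21.7 to 9.70 points, and the groups overlapped.

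The summed FOXO3 level was 20.5 and 7.19 per 100000 in the controls, against 4.95 and 4.86 in the knockdowns. Control replicate 1 lay far above the other 3 libraries, which lay close together. The log2 fold change was -1.12 ± 0.51 (edgeR adjusted p = 0.385), and without control replicate 1 it was -0.31.

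CDYL encodes a chromodomain protein that acts as a corepressor. Its leading circle, a single exon of 667 nt at chr6:4891713-4892379 (+), had 97 and 83 counts in the controls, against 35 and 50 in the knockdowns. Its share of CDYL hardly varied, at 68.8%, 72.8%, 71.4% and 68.5%, and the groups overlapped. The second circle, chr6:4935515-4937737, had 5, 3, 0 and 10 counts. The summed level of 29.8 and 20.5 per 100000 in the controls, against 17.3 and 18.7 in the knockdowns, gave a log2 fold change of -0.15 ± 0.33 (edgeR adjusted p = 0.873).

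ZNF609 encodes a zinc finger protein, and its circle is known for an open reading frame that begins at the normal start codon. The gene was close to the limit of detection in the knockdowns: its circles summed to 25 and 24 counts in the controls, against 1 and 3 in the knockdowns. Per 100000 this was 5.29 and 4.31 against 0.354 and 0.768, and the groups did not overlap. The ratio of knockdown to control, from summed counts, was 0.125, with a counting interval from 0.0327 to 0.34 (exact, 95%). It was computed for no other gene total, and ZNF609 had the lowest level ratio of the 10 genes in these same libraries. The ratio may therefore be too low, and the interval does not cover that choice. The gene reached the 10 counts of the test through the controls alone. The log2 fold change was -2.66 ± 0.79, with an unadjusted p of 0.0095 and an edgeR adjusted p of 0.215; over the alternatives that gave one, the adjusted p ranged from 0.00999 to 0.92. The leading circle, a single exon of 874 nt at chr15:64499293-64500166 (+), had 8, 12, 0 and 2 counts. It was 32.0% and 50.0% of the gene in the controls. In control replicate 1 it did not lead alone, since an intron-type circle, chr15:64519395-64521398, also had 8 counts there and none in the other libraries. In the knockdowns a share rests on 1 and 3 counts and cannot be read.

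FBXW7 encodes the F-box protein that brings cyclin E and MYC to a ubiquitin ligase. Its leading circle joined 2 exons into 620 nt at chr4:152411303-152412529 (-), with 10 and 48 counts in the controls, against 6 and 15 in the knockdowns. The controls differed from each other more than from the knockdowns: its share of FBXW7 was 21.3% in control replicate 1 but 65.8% in control replicate 2, beside 28.6% and 42.9% in the knockdowns. Intron-type circles held 63.8% of FBXW7 in control replicate 1 and 13.7% in control replicate 2, against 47.6% and 42.9%. In control replicate 1, 2 of them, named after their values were seen, had 9 (chr4:152517399-152519355) and 8 counts (chr4:152391319-152394042) and none elsewhere. The summed level was 9.95 and 13.1 per 100000 in the controls, against 7.43 and 8.96 in the knockdowns (log2 fold change -0.19 ± 0.42, edgeR adjusted p = 0.866).

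UBAP2 encodes a ubiquitin-associated protein and gave a family of circles: 56 positions had a count, 20 of them in all 4 libraries. The leading circle, chr9:33971651-33973237 (-), had 93 and 119 counts in the controls, against 8 and 27 in the knockdowns. Per 100000 that was 19.7 and 21.4 against 2.83 and 6.91, with no overlap. Its share of UBAP2 went from 28.6% and 33.4% to 7.92% and 15.0%, a difference of -19.6 points.

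The caller drew this circle as 1 block of 1587 nt, which keeps a 1428-nt intron that 18 other UBAP2 circles splice out. The log2 fold change was -2.07 ± 0.53 with an unadjusted p of 0.00729 and an edgeR adjusted p of 0.17, so it did not pass. The adjusted p over the alternatives ran from 3.2e-09 to 0.746, and passed in 4 of 13: the DESeq2 Wald test, the replicate block, and without either control. Against the other UBAP2 circles its log2 difference was -1.22 (edgeR adjusted p = 0.442), and UBAP2 as a gene did not pass the test of circle use (adjusted p = 0.56).

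Of the 18 tested UBAP2 circles, 6 were lower (33.3%, against 22.9% of all tested circles) and 1 was higher (5.56%, against 23.2%) in both knockdowns than in both controls. The second circle, chr9:33953285-33996333, had 18, 26, 7 and 23 counts and a log2 fold change of -0.01 ± 0.57, whose sign turned under 4 other settings and without either of 2 libraries. Counts were spread more evenly over the circles in the knockdowns: the effective number of circles (the inverse of the summed squared shares) was 9.26 and 7.18 in the controls, against 20.7 and 14.6 in the knockdowns. This number takes in the lower leading share given above, so it is not a separate result. It was not computed for all host genes. The acceptor of the leading circle started 38.2% and 40.7% of the UBAP2 counts in the controls, against 17.8% and 19.4% in the knockdowns. The gene total was 68.8 and 64.0 per 100000 against 35.7 and 46.1 (log2 fold change -0.38 ± 0.35, edgeR adjusted p = 0.651).

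CAMSAP1 encodes a protein that binds the minus ends of microtubules. Its leading circle at chr9:135881633-135883078 (-) was drawn in 2 forms, 1446 nt with a 1021-nt intron kept and 425 nt with it spliced out, which the counts do not separate. It had 27 and 10 counts in the controls, against 9 and 13 in the knockdowns, or 60.0% and 20.8% against 52.9% and 100% of the gene. In knockdown replicate 2 all 13 counts of CAMSAP1 were this circle, with an exact 95% lower limit of 75.3%. The other 2 described circles share a donor, and both were lower in both knockdowns than in both controls. They were 66.7% of the 3 tested CAMSAP1 circles, where 22.9% of all tested circles were lower in this way. The first, chr9:135850137-135883078, had 11, 12, 3 and 0 counts, and chr9:135850137-135866536 had 5, 24, 1 and 0. The log2 fold change of the last was -3.85 ± 1.30 (unadjusted p 0.0244, edgeR adjusted p = 0.274), on 1 count in the knockdowns. In control replicate 1 this last circle stood at 1.06 per 100000, about the floor of knockdown replicate 1 (1.06). The gene total was 9.53 and 8.62 per 100000 against 6.01 and 3.33 (log2 fold change -0.67 ± 0.46, edgeR adjusted p = 0.534).

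CORO1C encodes a coronin that binds actin filaments. Its leading circle, chr12:108652272-108654410 (-), had 48 and 29 counts in the controls, against 20 and 27 in the knockdowns. The caller drew it as 2 exons of 251 nt together, as 3 exons of 395 nt, or as 1 block of 2139 nt that keeps a 1888-nt intron. Its share of CORO1C was 42.5% and 46.0% in the controls, against 66.7% and 62.8% in the knockdowns, with no overlap. The donor of this circle closed 54.0% and 63.5% of the CORO1C counts in the controls, against 93.3% and 81.4% in the knockdowns. Among the 3 CORO1C circles with at least 10 counts alone, the difference in the leading share was 3.37 points instead of 20.5 and the groups overlapped, so it lay mostly in circles of few counts. The gene total was 113 and 63 counts in the controls, against 30 and 43 in the knockdowns; per 100000, control replicate 1 (23.9) lay apart from control replicate 2 (11.3) and from the knockdown mean (10.8 ± 0.283 SD, n = 2) (log2 fold change -0.35 ± 0.40, edgeR adjusted p = 0.729).

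MAN1A2 encodes a Golgi mannosidase that trims N-linked glycans. Its summed circular RNA did not separate the groups, at 35.8 and 51.9 per 100000 in the controls, against 34.3 and 40.5 in the knockdowns (log2 fold change 0.06 ± 0.39, edgeR adjusted p = 0.958). Which circles made up that sum did differ: a pair of small circles from one acceptor rose against the rest of the gene. MAN1A2 was the only one of the 9 genes with at least 2 tested circles that passed the test of circle use, with an edgeR adjusted p of 7.39e-05. That test called 122 of 2671 genes (4.57%).

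The leading circle of MAN1A2, chr1:117460489-117502970 (+), joined 6 exons into 843 nt. It had 46 and 141 counts in the controls, against 12 and 33 in the knockdowns, and its share went from 27.2% and 48.8% to 12.4% and 20.9%. Both knockdowns were below both controls in share and in level, although the controls differed from each other. Its log2 fold change was -1.40 ± 0.54 (edgeR adjusted p = 0.339).

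The circle chr1:117402186-117442325, of 5 exons and 648 nt, had 1 and 4 counts in the controls, against 16 and 32 in the knockdowns. The circle chr1:117402186-117420649, which starts at the same acceptor and was drawn with 4 exons and 553 nt or with 5 blocks and 2390 nt, had 2 and 5 counts against 16 and 21. Against the other circles of the gene their log2 differences were 4.07 (edgeR adjusted p = 0.00114) and 3.25 (adjusted p = 0.0155). They were the only 2 of 60 circles of the 10 genes (3.33%) called in that test, which called 128 of 19032 circles (0.673%). Over both controls they had 5 and 7 counts, so they passed the filter of 10 counts only through the knockdowns, where they are high. In the test of each circle by itself they had log2 fold changes of 3.80 ± 0.65 (edgeR adjusted p = 0.0927) and 2.98 ± 0.57 (adjusted p = 0.108), and did not pass.

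Together the pair made up 1.78% and 3.11% of MAN1A2 in the controls, against 33.0% and 33.5% in the knockdowns. The level of the pair was 1.13 ± 0.694 per 100000 in the controls and 12.4 ± 1.59 in the knockdowns (SD, n = 2 each). From summed counts, 12 in the controls and 85 in the knockdowns, the ratio was 10.8, with a counting interval from 5.89 to 21.8 (exact, 95%). The pair was picked by its calls in these same libraries, so the ratio may be too high and the interval does not cover that choice. All other MAN1A2 circles together were at 0.584 times the control level.

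The sites of the pair were also used in other circles, which were set beside it after their values had been seen. The same acceptor joined to donors further downstream had 16 and 21 counts in the controls, against 8 and 8 in the knockdowns. The same 2 donors joined to an acceptor 277 nt from the start of the gene had 3, 14, 1 and 0 counts (chr1:117367726-117420649) and 4, 7, 2 and 0 counts (chr1:117367726-117442325). Neither site of the pair was therefore more used in every circle that held it: the higher counts lay in these 2 combinations. By acceptor, the site of the pair started 11.2% and 10.4% of the MAN1A2 counts in the controls, against 41.2% and 38.6% in the knockdowns. The site of the leading circle started 30.2% and 54.7% against 20.6% and 25.3%, and the acceptor nearest the gene start 14.8% and 15.9% against 7.22% and 5.06%.

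**Figure D3:**
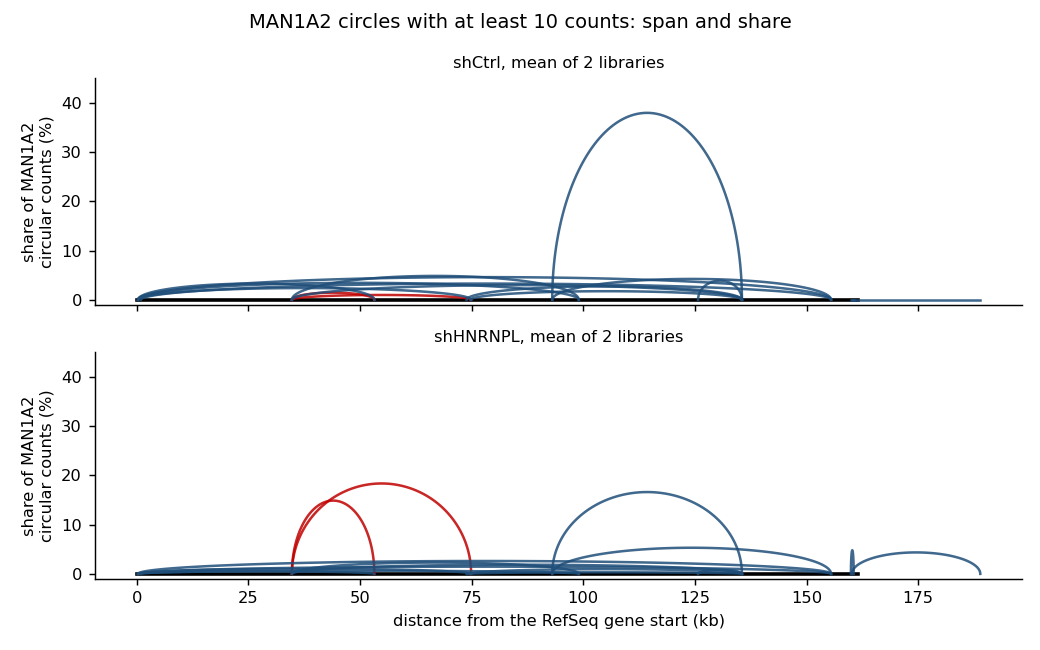
MAN1A2 circles with at least 10 counts, drawn as arcs from acceptor to donor by distance from the RefSeq gene start in kb, with the height of an arc giving the mean share of the MAN1A2 counts in the 2 libraries of a group. The leading circle lies at 38.0% in shCtrl and 16.6% in shHNRNPL, and the pair of red arcs, the circles called in the test of circle use, go from 0.988% and 1.46% to 18.4% and 14.9%.

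**Figure D4:**
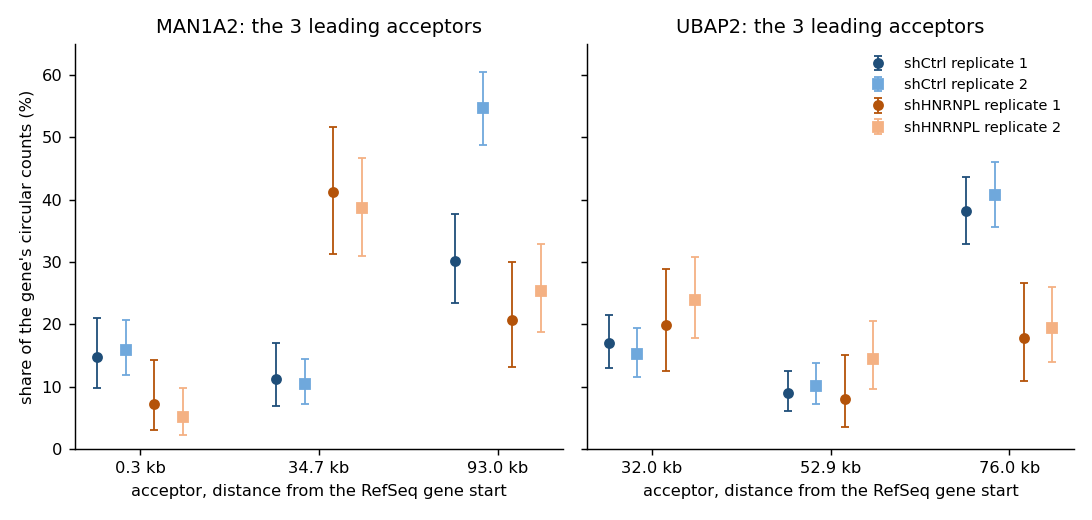
Share of the gene's circular counts that start at each of the 3 leading acceptors of MAN1A2 and UBAP2, by library, with exact 95% binomial intervals that cover counting error only. In MAN1A2 the middle acceptor goes from 11.2% and 10.4% in shCtrl to 41.2% and 38.6% in shHNRNPL, and in UBAP2 the acceptor farthest from the gene start goes from 38.2% and 40.7% to 17.8% and 19.4%.

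A further 2 MAN1A2 circles had no count in the controls, and are named after their values were seen. The circle chr1:117527382-117527995, near the end of the gene, had 5 and 7 counts in the knockdowns, which is at least 3.03-fold higher than the floor of 3 counts in each control. The circle chr1:117527597-117556350, which runs past the annotated end of MAN1A2 and also names VPS25P1, had 6 and 4 counts, at least 2.68-fold higher on the same floor. Of the 16 tested MAN1A2 circles 4 were higher (25.0%, against 23.2% of all tested circles) and 9 lower (56.2%, against 22.9%) in both knockdowns than in both controls. The 4 are this last pair and the called pair, and all 4 reached 10 counts only through the knockdowns. Rows that name several genes held 61.7% of the MAN1A2 counts, the leading circle among them, which overlaps a gene model with no symbol. Without those rows the log2 fold change of the gene was 1.26 (edgeR adjusted p = 0.129).

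The call of MAN1A2 in the test of circle use was lost without knockdown replicate 1 and without knockdown replicate 2. Those fits hold 1 knockdown library and called hardly any gene of the whole table, so the loss is not particular to MAN1A2. Under the other 10 settings MAN1A2 passed. In the same way the calls of both circles were lost without either knockdown library, and also with no filter on low counts (adjusted p = 0.112 and 0.627), while their log2 differences stayed at 2.93 or more in all 11 settings.

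PVT1 is a long noncoding RNA gene beside MYC. Its leading circle, chr8:127989162-128010444 (+), had 17 and 24 counts in the controls, against 9 and 7 in the knockdowns, or 13.7% and 34.8% against 25.7% and 17.9% of the gene. The shares overlapped. The next circle, chr8:127983904-128010444, ends at the same donor and had 13, 5, 5 and 2 counts. The circle chr8:127890589-127890998, a single block of 410 nt, had 13, 4, 1 and 4 counts. PVT1 was the least concentrated of the 10 genes in control replicate 1, with an effective number of circles of 17.4, while control replicate 2 had 6.79 and the knockdowns 9.07 and 11.6. Its total was 26.2 and 12.4 per 100000 in the controls, against 12.4 and 9.99 in the knockdowns (log2 fold change -0.44 ± 0.40, edgeR adjusted p = 0.649). Rows that name several genes held 63.7% of its counts.

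Over the 10 genes, the leading share did not overlap between groups for 5: it was higher in the knockdowns for FOXO3 and CORO1C, and lower for HIPK3, UBAP2 and MAN1A2. The difference was 21.7 and 20.5 points for the first pair and -0.87, -19.6 and -21.4 points for the others. Among the 2873 host genes with at least 100 counts, 34.3% had a higher and 15% a lower leading share without overlap. Among circles with at least 10 counts alone, the shares of HIPK3, FOXO3 and CORO1C overlapped, while those of UBAP2 and MAN1A2 stayed apart, and FBXW7 (lower) and CAMSAP1 (higher) no longer overlapped. Each of the 5 reached p = 0.33 in the exact two-sided permutation test, the smallest that 2 against 2 allows, and 0.667 after Benjamini-Hochberg adjustment over the 10 genes. The mean leading share ran from 21.2% for UBAP2 and 23.0% for PVT1, both below the median of host genes, to 70.4% for CDYL and 93.7% for HIPK3.

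**Figure D5:**
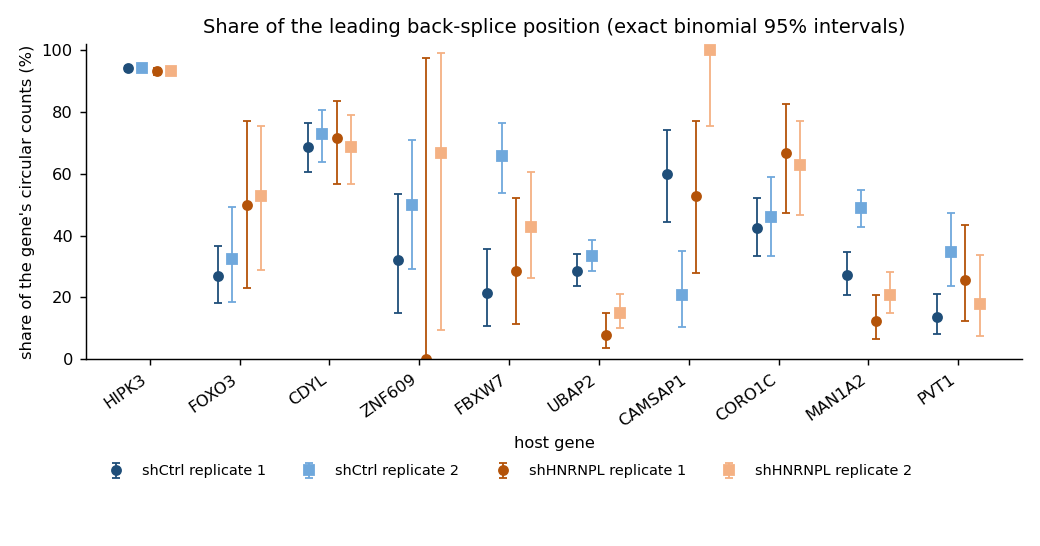
Share of the leading back-splice position in the circular counts of its host gene, by library, with exact 95% binomial intervals that cover counting error only. HIPK3 stays between 93.3% and 94.2% and CDYL between 68.5% and 72.8%, UBAP2 and MAN1A2 are lower in both shHNRNPL libraries, and ZNF609 rests on 1 and 3 counts there.

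Antisense circles, which the rule leaves out, were few beside the sense circles for HIPK3 (16, 7, 5 and 20 counts). For FOXO3 they had 34 and 17 counts in the controls, against 1 and 1 in the knockdowns. Counts were 16, 11, 5 and 14 for CDYL, 17, 13, 6 and 11 for PVT1, and 10, 0, 6 and 11 for MAN1A2. They were 7, 0, 1 and 3 for ZNF609, 3, 8, 1 and 3 for FBXW7, and 6, 0, 2 and 1 for CORO1C. UBAP2 had 3, 3, 0 and 0, and CAMSAP1 had 8, 0, 0 and 0. Antisense circles held 6.79%, 2.69%, 2.38% and 2.61% of all counts of the libraries. Of the 440 positions with a count, 54.3% were seen in a single library, against 58.3% of all positions.

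Other known hosts were counted as a list of 22 genes. Of the 19 with enough counts, 10 had a log2 fold change above 0 and 9 below, and edgeR's test called 1 higher and none lower. The called gene, EIF3J, a translation initiation factor subunit, had 8 and 15 counts in the controls, against 37 and 77 in the knockdowns (log2 fold change 3.18 ± 0.50, edgeR adjusted p = 0.0454). Over all host genes 0.442% were called higher. The EIF3J call was lost without either knockdown library, as were those of all called host genes, while its log2 fold change was 3.49 and 2.83. With edgeR's newer dispersion method it was lost (adjusted p = 0.0982), and 0 of 8379 host genes passed. The call was lost with rows naming 1 gene (0.0863). It was also lost with exon-type circles alone, where the log2 fold change was 1.45 (adjusted p = 0.596). At an unadjusted p under 0.05, 5 were higher and 2 lower (7.58% and 6.17% of all host genes were), and the median log2 fold change was 0.09. Of the 18 with an adjusted p, the DESeq2 Wald test called 3 higher (ARHGAP5, EIF3J and XPO1) and 1 lower (ZKSCAN1), beside 4.57% higher and 0.235% lower of all host genes. CDR1-AS, the host of the best known microRNA-binding circle, and SLC8A1 were at 0 in all 4 libraries. A list of 13 regulators of back-splicing, taken as hosts, had 11 tested genes, of which none passed in either direction with edgeR. At an unadjusted p under 0.05, SRSF1 was higher (48, 41, 52 and 65 counts) and HNRNPC lower (253, 230, 33 and 49 counts), and the median was -0.59. The DESeq2 Wald test called HNRNPC lower, of the 6 in this list with an adjusted p.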

How the data were processed

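Circular RNA was sequenced on nanopores from total RNA after random-primed reverse transcription with Induro, phi29 amplification and T7 endonuclease I debranching, per the labels' protocols. The authors deposited whole-number raw counts per back-splice position, with no molecular identifiers, so intervals and floors cover counting error only. The caller named in the table is CIRI-long. GRCh38.p14 and DESeq2 are named in the submitters' processing notes; the aligner was not given in the sources used here. Coordinates are the table's own, and gene starts are from RefSeq on GRCh38.p14.

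The rest was computed here. A position counted for each gene it names. Circles, summed host genes and circle use within a gene (diffSpliceDGE, F tests) were each fitted on the whole table with edgeR 4.0.16 in R 4.3.3: quasi-likelihood, TMM, at least 10 counts over the 4 libraries, group as the sole factor, Benjamini-Hochberg adjustment, threshold 0.05. In the use test a row counted for the first of the 10 genes that it names, otherwise for its first gene. The scripts were tested on simulated data. Standard errors were derived from the F statistic. DESeq2 1.42.0 was an alternative.

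In each gene the text describes the leading circle and others, up to 4. The others had, in any library, at least 10 counts and at least 10% of the gene's counts. Circles described beside this rule are the second of HIPK3, the intron-type circle of ZNF609, and those said to be named or set beside others after their values were seen. Genes, lists and tests were chosen with earlier results of these data known. Replicate numbers were not used to pair the libraries in the main fits. Over 4944 circles, the correlation of deviations between libraries that share a number was 0.0806. This single value cannot decide whether they are paired, and the replicate block is given as an alternative below.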

Additional observations from a re-analysis of the deposited data

How the results depend on the processing

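Only 2 libraries a group limit every test, and most circles described here have under 100 counts, so shares of ZNF609, CAMSAP1 and FOXO3 carry wide counting intervals. Counts of calls over all features moved with the settings, and the cause was not tested. The circle test called 0 in the main setting, 471 with no filter, 617 with at least 40 counts, 1653 with the replicate block, 1085 with DESeq2, 497 with exon circles only, and 0 to 6392 with a library left out. The host gene test called 37, against 60 with DESeq2 size factors, 58 with library-size scaling, 412 with no filter, 108 with at least 40 counts, 0 with edgeR's newer dispersion method (where 1250 had an unadjusted p under 0.05), 366 with the replicate block, 184 with DESeq2, 89 with rows naming 1 gene, 78 with the first gene named, 72 with exon circles only, and 0 to 2776 with a library left out (1675 without control replicate 1, 2776 without control replicate 2, 0 without either knockdown). The circle use test called 122, against 385 with the newer dispersion method, 657 with the replicate block, 56 with Simes' method, and 1 to 1071 with a library left out. Leading shares without overlap numbered 5, and 4 with at least 10 counts, 4 of 8 genes with rows naming 1 gene (which leave out the leading circle of MAN1A2), 5 with exon circles only, and 6 to 9 with a library left out. The adjusted p for MAN1A2 circle use ran from 8.65e-12 to 0.825 with a library left out, and was 7.88e-10 with the replicate block.

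Signs turned for small log2 fold changes. For the UBAP2 circle 33953285-33996333 (-0.01) it was 0.017 with DESeq2 size factors, 0.088 with at least 40 counts, 0.0069 with the newer dispersion method and 0.013 with DESeq2. For the MAN1A2 gene (0.06) it was -0.24 with library-size scaling and -0.0028 with no filter. With a library left out, the ranges that crossed 0 were -0.77 to 0.53 for that UBAP2 circle, -1.37 to 0.28 for the leading circle of FOXO3, -1.30 to 0.28 for that of FBXW7, -1.06 to 1.02 for that of CAMSAP1, -0.80 to 0.59 for that of CORO1C and -1.84 to 0.39 for the PVT1 circle 127983904-128010444. By gene they were -0.21 to 0.25 for HIPK3, -0.22 to 0.058 for CDYL, -0.42 to 0.31 for FBXW7, -0.57 to 0.17 for CORO1C, -0.23 to 0.65 for MAN1A2 and -0.67 to 0.070 for PVT1. The replicate block brought the leading UBAP2 circle (adjusted p = 0.00386) and both called MAN1A2 circles (0.000211 and 0.00627) past the threshold of the circle test. Merging positions within 10 nt merged none of the 440 positions of the 10 genes that had a count; their fitted values moved little (-0.46 to -0.48 for the leading HIPK3 circle), and no call among the circles described changed.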
